A study of Rattus norvegicus with 10 samples.

Results

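The genes described here build and regulate the actin contractile apparatus, together with targets of serum response factor (SRF), and 49 of them were listed by symbol. A gene was measured through the array probe that carries its symbol in the platform annotation, and where a gene had several probes the one with the highest mean over the 10 arrays was taken. On this basis 41 of the 49 genes were measured, out of 13336 genes named on the array. The other 8 (Acta2, Cnn2, Cnn3, Tpm2, Myl6, Myh11, Tln1 and Tgfb1i1) had no probe under their symbol and are not analysed here. Acta2, the smooth muscle α-actin that is most often used to mark a contractile cell, is therefore missing from what follows.

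The arrays were RatRef-12 BeadChips carrying total RNA of primary osteoblast cultures from 5 male CD rats. From each rat, S-Bdc were grown from skull bone (calvarium) and L-Bdc from limb bone (ulna), which gave 5 matched pairs and 10 arrays. Both cultures came from the third collagenase digest of bone cleared of soft tissue and marrow, and were grown in serum-containing medium with no treatment, and their RNA was taken at passage 3 and 95% confluence. A population grown out of a digest is not a purified cell type, and basal expression in growing cultures is not that of bone in the animal. Ages were not given. Of 8 measured osteoblast markers, 6 were above background on all 10 arrays, whereas Bglap (osteocalcin) was so in 3 S-Bdc cultures and 1 L-Bdc culture and Sp7 (osterix) in 2 S-Bdc cultures and 1 L-Bdc culture. In RNA from whole cultures, fewer cells of a type and less RNA per cell cannot be told apart.

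In cells that pull on their surroundings, actin filaments are crosslinked by α-actinins and filamins, decorated by tropomyosins, calponins and transgelins, driven by non-muscle myosin II, and anchored at focal adhesions. SRF is a DNA-binding factor whose coactivators, the myocardin-related transcription factors (MRTFs), are held by monomeric actin. When actin polymerises the coactivators are freed and enter the nucleus, so SRF activity is tied to the state of the filaments. SRF binds the CArG box and activates many actin, transgelin, calponin and α-actinin genes. Some of the same target genes, among them Ccn1 and Ccn2, are also activated by YAP and TAZ through TEAD factors. Osteoblasts use this apparatus to spread, migrate and respond to load.

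Promoter sequence from RefSeq (GRCr8, 250 bases before to 50 after each start site) was matched to 42 of the 49 genes, with 49 start sites between them, and it is shown because the genes were listed as SRF targets. The promoters of 7 listed genes, Actb, Tagln, Lmod1, Myl9, Myh11, Actn4 and Ankrd1, were not matched. The CArG box was searched on both strands and was present in 9 of the 49 windows, belonging to 8 of the 42 genes, against 1.64% of all 33469 promoters of the same length. Because the genes were listed with SRF targets in mind, this share is a description of the list. Srf itself held 2 boxes, with first bases at -81 and -61 from the start site, and its upstream bases -250 to -1 are printed with both boxes in capitals.
Srf (chr9:21923826-21924075, plus strand): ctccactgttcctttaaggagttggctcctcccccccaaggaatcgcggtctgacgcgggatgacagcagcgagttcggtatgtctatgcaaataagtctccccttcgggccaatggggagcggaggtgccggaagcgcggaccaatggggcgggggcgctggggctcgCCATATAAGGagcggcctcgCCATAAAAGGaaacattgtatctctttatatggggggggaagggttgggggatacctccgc
Fhl2 held a box at each of 2 start sites (-95 and -58). Acta1, Actg1, Fhl1, Lima1 and Cnn2 held 1 each, at -94, -90, -102, -209 and -71. In Actc1 the box began at +3, downstream of the start site, and is not printed. The following stretches of 60 bases surround the boxes, in capitals.
Fhl2 start site 1 (chr9:52954601-52954660, minus strand): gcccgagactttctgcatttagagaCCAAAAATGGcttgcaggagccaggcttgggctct
Fhl2 start site 2 (chr9:52923350-52923409, minus strand): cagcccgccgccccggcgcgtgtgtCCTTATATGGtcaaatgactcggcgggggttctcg
Acta1 (chr19:68784254-68784313, minus strand): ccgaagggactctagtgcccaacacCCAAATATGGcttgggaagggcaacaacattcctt
Actg1 (chr10:106121007-106121066, minus strand): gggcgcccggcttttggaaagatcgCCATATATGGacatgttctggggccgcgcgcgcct
Fhl1 (chrX:139638369-139638428, plus strand): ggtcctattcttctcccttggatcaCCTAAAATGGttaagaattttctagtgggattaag
Lima1 (chr7:132880518-132880577, minus strand): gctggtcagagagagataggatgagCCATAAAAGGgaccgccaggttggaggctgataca
Cnn2 (chr7:10370349-10370408, minus strand): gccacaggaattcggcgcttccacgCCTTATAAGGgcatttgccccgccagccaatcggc
The TEAD motif (CATTCC, or GGAATG on the other strand) was present in 15 of the 49 windows, of 15 genes, against 14.2% of all promoters. None of its matches overlapped a CArG box. Ccn1 and Ccn2, matricellular proteins of one family, are shown with the motif in capitals, which occurs at -113 in Ccn1 and at -166, -101 and -92 in Ccn2.
Ccn1 (chr2:237225690-237225939, minus strand): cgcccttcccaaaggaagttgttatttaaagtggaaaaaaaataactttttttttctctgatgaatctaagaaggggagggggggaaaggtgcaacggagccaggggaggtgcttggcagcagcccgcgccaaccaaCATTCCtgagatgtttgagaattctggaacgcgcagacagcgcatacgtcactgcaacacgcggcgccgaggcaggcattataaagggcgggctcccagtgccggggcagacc
Ccn2 (chr1:22624615-22624864, minus strand): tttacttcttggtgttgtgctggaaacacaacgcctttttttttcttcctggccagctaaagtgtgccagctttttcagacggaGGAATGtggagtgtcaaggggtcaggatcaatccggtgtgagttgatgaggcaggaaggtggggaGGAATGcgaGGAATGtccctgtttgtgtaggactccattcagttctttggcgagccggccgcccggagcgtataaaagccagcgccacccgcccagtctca
A match of these letters is not a binding site, and nothing on these arrays measured occupancy.

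**Figure D1:**
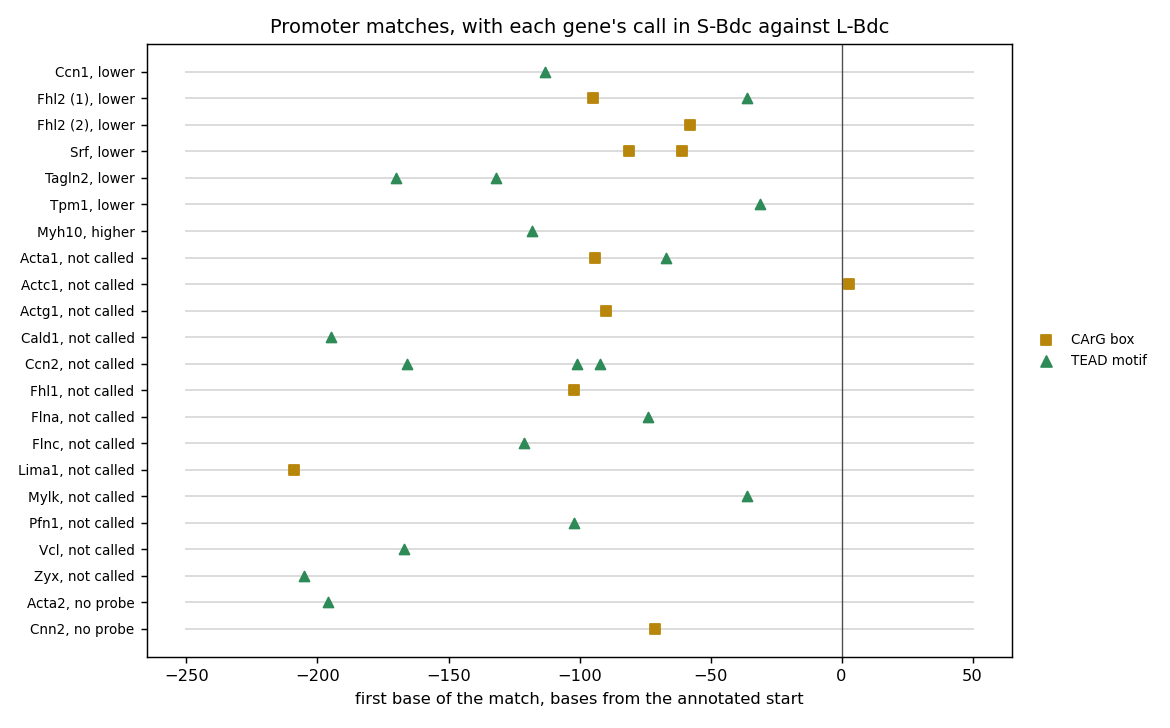
Position of each CArG box and TEAD motif match relative to the start site (horizontal axis, bases; 0 is the start) for the listed genes that held one (vertical axis). The 2 boxes of Srf lie at -81 and -61, and the 3 TEAD motif matches of Ccn2 lie between -166 and -92.

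The site comparison asked whether untreated cultures from skull and limb bone, growing in serum-containing medium, differ in transcripts of this apparatus. Of the 41 measured genes, 13 passed the test (limma with rat as a block, Benjamini-Hochberg adjustment over all 22517 probes, adjusted p below 0.05), 11 of them lower and 2 higher in S-Bdc than in L-Bdc. Among all probes 9.10% were called, 4.68% lower and 4.43% higher, and among the brightest probes of all named genes 6.21% were lower and 5.69% higher. Among probes above background on at least 1 array, 6.97% were lower and 6.60% higher. Thus 26.8% of the measured genes were lower in S-Bdc, above these shares, and 4.88% were higher, close to them. Because the genes were listed with earlier results of these data known, both shares describe the list and are not a test of it. Of the 41 genes, 33 were above background on all 10 arrays. No share over all probes passing that filter was taken. The lower genes were Tagln2, Tpm1, Tpm4, Smtn, Actn1, Actn4, Pdlim5, Fhl2, Msn, Srf and Ccn1, between 1.26-fold and 1.59-fold lower at the offset used. Myl9 and Myh10, both subunits of myosin II, were the 2 higher genes. All levels here are log2 bead signals after background correction and quantile normalisation, and a difference is S-Bdc minus L-Bdc with its standard error (n = 5 per site). Because an offset of 50 signal units was added before the log, differences of dim probes are understated.

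All 13 called genes were above background on every array. Of the 41 measured, 33 were above background on all 10 arrays, 6 on some and 2 on none. Each of the 11 lower genes was lower in all 5 pairs, and for 5 of them (Tagln2, Tpm1, Fhl2, Msn and Srf) the sites did not overlap. Both counts are descriptions, since the 11 genes were chosen by the same contrast. Over the 41 genes, 6 did not overlap, the sixth being Lmod1, which was not called, and 7.00% of all probes did not. The median difference of the 41 genes was -0.065, against -0.0015 over all probes, with 26 genes below 0 and 15 above. That shift depended on normalisation, since the median was -0.0034 after median scaling and 0.00063 without normalisation between arrays. The 28 genes that were not called had differences between -0.30 and 0.25, with standard errors of 0.048 to 0.18, and 5 of them had an unadjusted p below 0.05. The number of calls depended on normalisation as well. Median scaling gave 10 calls (without Tagln2, Tpm4 and Myh10), no normalisation between arrays gave 6 (Tpm1, Myl9, Actn1, Actn4, Msn and Ccn1), and the deposited normalised values with a floor of 16 units gave 1 (Smtn). Over all probes the calls were 997 higher and 1053 lower, against 513 higher and 357 lower without normalisation between arrays.

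**Figure D2:**
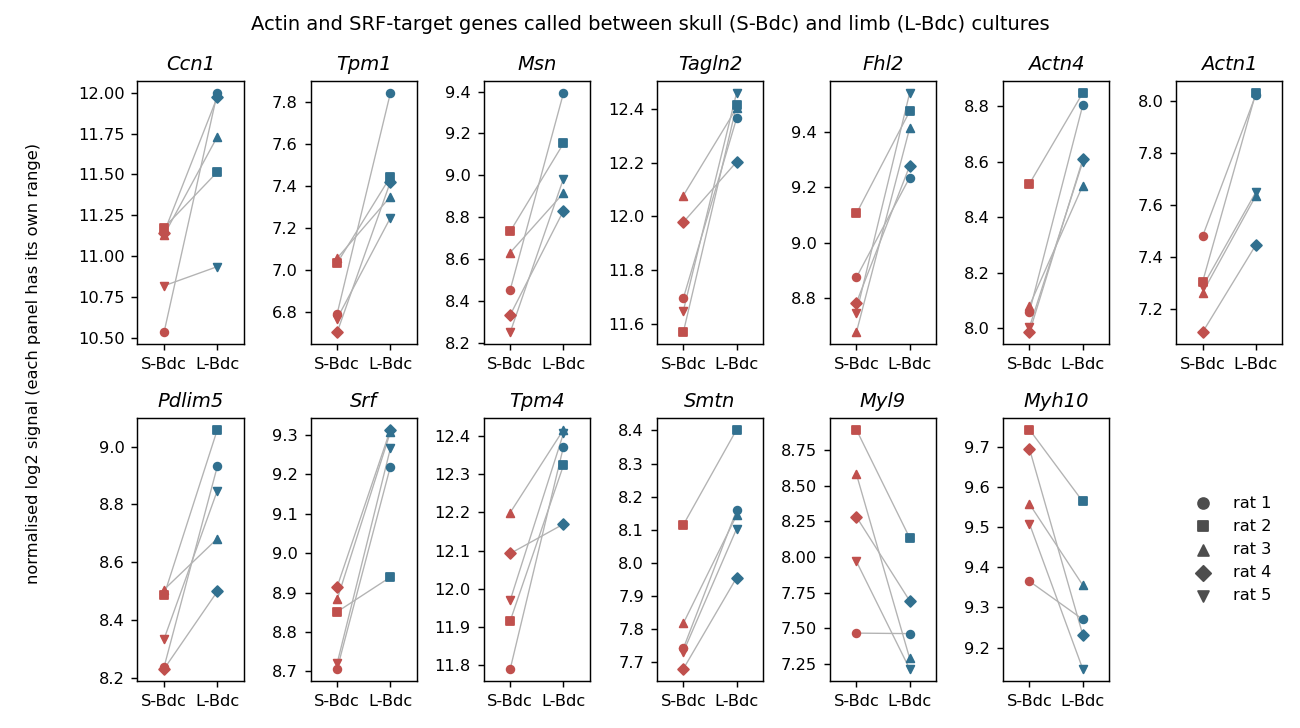
Log2 bead signal (normalised, vertical axis) of the 13 called genes in S-Bdc and L-Bdc, with 1 point per array and a line joining the cultures of each rat. In the panels of the 11 lower genes every line runs up from S-Bdc to L-Bdc, whereas the Myl9 lines of 4 rats run clearly down and that of rat 1 is nearly flat.

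Among actin isoforms, none of the 5 measured genes passed the test by its brightest probe (limma), and none had an unadjusted p below 0.05. Actb, cytoplasmic β-actin, had levels of 13.41, 13.58, 13.47, 13.19 and 13.41 in S-Bdc of rats 1 to 5, against 13.43, 13.66, 13.73, 13.43 and 13.15 in L-Bdc. The sites overlapped, and the difference was -0.07 ± 0.07 (adjusted p = 0.757), with the sign turned after median scaling (0.07) and without normalisation between arrays (0.08). The 3 Actb probes disagreed, however, because the dimmest of the 3 read 12.92, 13.24, 13.01, 13.19 and 12.94 in S-Bdc, against 13.34, 13.28, 13.45, 13.32 and 13.42 in L-Bdc, a difference of -0.30 ± 0.07 that passed (adjusted p = 0.0304). The remaining Actb probe gave -0.30 ± 0.09 and did not (adjusted p = 0.0839). The mean of the 3 probes was lower in S-Bdc (-0.22) and passed (adjusted p = 0.0306), so the absence of a call for Actb depended on the choice of probe. Actg1, the cytoplasmic γ-actin made by nearly all cells, was not above background on any array, so its probe gave no difference to read. The muscle isoforms were dim or variable. Acta1, skeletal α-actin, was above background in 2 S-Bdc cultures and 3 L-Bdc cultures, and Actc1, the cardiac isoform, on 1 S-Bdc array and no L-Bdc array. Actg2, enteric smooth muscle γ-actin, ranged over 6.69 to 7.42 in S-Bdc, against 6.59 to 7.79 in L-Bdc, with a difference of 0.17 ± 0.18. Actin isoforms are close to each other in sequence, and how far a probe separates them was not analysed here.

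Thin filament regulators held the most calls by count, with 4 of 9 measured genes lower in S-Bdc, none higher, and 7 with an unadjusted p below 0.05 (limma). That is 44.4% lower, beside 6.97% of probes above background on at least 1 array. By share, 2 of 4 actin crosslinkers and 1 of 2 transcription regulators were lower, and 2 of 4 myosin II genes higher (50% each). All these shares rest on few genes. Tpm1, a tropomyosin that stabilises filaments and governs myosin access, read 6.79, 7.03, 7.05, 6.70 and 6.77 in S-Bdc of rats 1 to 5, against 7.84, 7.44, 7.35, 7.42 and 7.25 in L-Bdc. The 2 sites did not overlap, and Tpm1 was 1.51-fold lower (-0.59 ± 0.10, adjusted p = 0.00464). Its probe was dim and the difference grew as the offset shrank, to -0.78 with an offset of 16 and to -1.05 on the deposited values with a floor of 16, where it did not pass (adjusted p = 0.149). Tagln2, the transgelin of non-muscle cells, read 11.70, 11.57, 12.08, 11.98 and 11.65 in S-Bdc, against 12.36, 12.41, 12.40, 12.20 and 12.46 in L-Bdc. All 5 S-Bdc cultures lay below every L-Bdc culture, 1.49-fold lower on average (-0.57 ± 0.09, adjusted p = 0.00418).

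Tpm4, the tropomyosin found in stress fibres and in the cortex of many non-muscle cells, read 11.79, 11.92, 12.20, 12.09 and 11.97 in S-Bdc, against 12.37, 12.32, 12.42, 12.17 and 12.41 in L-Bdc. It was lower by a smaller margin (-0.34 ± 0.07, adjusted p = 0.0162), with the S-Bdc culture of rat 3 reaching above the lowest L-Bdc culture. Without rat 2 or without rat 5 the adjusted p of Tpm4 was 0.0548 and 0.0584. Smtn, smoothelin, binds filaments of contractile cells and read 7.74, 8.12, 7.82, 7.68 and 7.73 in S-Bdc, against 8.16, 8.40, 8.14, 7.96 and 8.10 in L-Bdc. The sites overlapped through the S-Bdc culture of rat 2, and the pairs differed by similar amounts (-0.34 ± 0.05, adjusted p = 0.00194).

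Tagln, transgelin or SM22α, a classical SRF target of smooth muscle and of contractile mesenchymal cells, read 10.25, 10.97, 10.69, 10.19 and 10.09 in S-Bdc, against 10.71, 10.55, 10.07, 10.26 and 10.26 in L-Bdc. The sites overlapped widely and the difference was 0.07 ± 0.14 (adjusted p = 0.883). Cnn1, the calponin of smooth muscle, read 6.44, 6.58, 6.59, 6.63 and 6.80 in S-Bdc, against 6.59, 6.45, 6.26, 6.39 and 6.47 in L-Bdc, with a difference of 0.18 ± 0.07 that did not pass (adjusted p = 0.219). Tpm3 was lower on average (-0.30 ± 0.12, adjusted p = 0.198), with rat 1 alone reading higher in S-Bdc, 10.40 against 10.12. Without rat 1, Cnn1 (adjusted p = 0.021) and Tpm3 (0.00532) passed the test, as did the filamin Flnc (0.0234). Lmod1, a leiomodin that nucleates filaments in smooth muscle, did not overlap between sites but missed the threshold (-0.18 ± 0.06, adjusted p = 0.109). Cald1, caldesmon, which restrains myosin on the filament, differed by 0.13 ± 0.07 (adjusted p = 0.399).

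The myosin II motor was the only role in which called genes were higher in S-Bdc. Myl9, the regulatory light chain whose phosphorylation switches the motor on, read 7.47, 8.89, 8.58, 8.28 and 7.97 in S-Bdc of rats 1 to 5, against 7.46, 8.13, 7.29, 7.69 and 7.22 in L-Bdc. It was higher by 0.68 ± 0.14, or 1.6-fold (adjusted p = 0.015), in a range that overlapped between sites, and in rat 1 the cultures were level. Myh10, the heavy chain of non-muscle myosin IIB, read 9.37, 9.74, 9.56, 9.69 and 9.51 in S-Bdc, against 9.27, 9.56, 9.36, 9.23 and 9.15 in L-Bdc. It was higher in S-Bdc in all 5 pairs by a small amount (0.26 ± 0.06, 1.2-fold, adjusted p = 0.0284). Both calls were lost without the pairing: without rat as a block the adjusted p was 0.113 for Myl9 and 0.0885 for Myh10. Myl9 also lost its call without rat 4 (0.0547) and without rat 5 (0.0530), and Myh10 without rats 2, 3, 4 or 5 (0.0512 to 0.108). Myh10 was called in only 5 of 15 alternatives, and was lost also with an offset of 16 (0.122) and with trend and robust variances (0.107). The heavy chain of non-muscle myosin IIA, Myh9, differed by 0.01 ± 0.06 (adjusted p = 0.972). Mylk, myosin light chain kinase, was not above background on any array.

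Both α-actinins of non-muscle cells, which crosslink filaments into bundles and link them to adhesions, were lower in S-Bdc. Actn1 read 7.48, 7.31, 7.26, 7.11 and 7.29 in S-Bdc of rats 1 to 5, against 8.02, 8.03, 7.64, 7.45 and 7.65 in L-Bdc, and was 1.38-fold lower (-0.47 ± 0.07, adjusted p = 0.00182). Actn4 read 8.06, 8.52, 8.08, 7.99 and 8.00 in S-Bdc, against 8.80, 8.85, 8.51, 8.61 and 8.60 in L-Bdc, and was 1.46-fold lower (-0.54 ± 0.07, adjusted p = 0.00079). In Actn4 only the S-Bdc culture of rat 2 touched the L-Bdc range, whereas in Actn1 the ranges met because rat 1 was high in S-Bdc and rat 4 low in L-Bdc. The filamins, which join filaments into networks, did not follow: Flna differed by -0.06 ± 0.06 (adjusted p = 0.714) and Flnc by 0.25 ± 0.10 (adjusted p = 0.199).

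None of the 4 measured focal adhesion and filament-end genes was called, and none had an unadjusted p below 0.05. Vcl, vinculin, which reinforces adhesions under tension, was above background in 3 S-Bdc cultures and 4 L-Bdc cultures and differed by 0.01 ± 0.06. Zyx, zyxin, was above background on 4 arrays of each site and differed by 0.09 ± 0.06. Vasp, which promotes filament elongation, differed by -0.15 ± 0.07 (adjusted p = 0.293), and Lima1, which bundles and protects filaments, by -0.01 ± 0.06.

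LIM and PDZ-LIM proteins bind filaments or α-actinin and some also act in the nucleus. Of 6 measured, 2 were lower in S-Bdc. Fhl2, a LIM-only adaptor and coregulator of transcription, read 8.88, 9.11, 8.68, 8.78 and 8.75 in S-Bdc of rats 1 to 5, against 9.23, 9.47, 9.41, 9.28 and 9.54 in L-Bdc. Every S-Bdc value lay below every L-Bdc value, and Fhl2 was 1.46-fold lower (-0.55 ± 0.07, adjusted p = 0.00146). Pdlim5, an α-actinin-binding scaffold also called ENH, read 8.24, 8.49, 8.50, 8.23 and 8.33 in S-Bdc, against 8.93, 9.06, 8.68, 8.50 and 8.85 in L-Bdc. Pdlim5 was 1.36-fold lower (-0.45 ± 0.08, adjusted p = 0.00569), with a narrow overlap at 8.50. Csrp1, a LIM protein of smooth muscle and mesenchyme, differed by -0.29 ± 0.11 and did not pass (adjusted p = 0.167), but did so without rat 2 (adjusted p = 0.0475). Csrp2, Pdlim7 and Fhl1 had differences of 0.18 ± 0.14, -0.06 ± 0.07 and 0.09 ± 0.07.

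Among proteins of filament turnover and linkage to the membrane, Msn, moesin, which ties cortical actin to the plasma membrane, was the 1 of 4 that was called. It read 8.45, 8.73, 8.63, 8.33 and 8.25 in S-Bdc of rats 1 to 5, against 9.39, 9.15, 8.92, 8.83 and 8.98 in L-Bdc. The sites did not overlap, and Msn was 1.49-fold lower in S-Bdc (-0.58 ± 0.09, adjusted p = 0.00294). Its relative Ezr, ezrin, differed by 0.12 ± 0.06 in the other direction without passing (adjusted p = 0.294). Pfn1, profilin, which delivers actin monomers, differed by -0.08 ± 0.08 and Cfl1, cofilin, which severs filaments, by -0.09 ± 0.05.

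Srf, the transcription factor itself, read 8.71, 8.85, 8.88, 8.92 and 8.72 in S-Bdc of rats 1 to 5, against 9.22, 8.94, 9.31, 9.31 and 9.27 in L-Bdc. It was lower in every pair and 1.31-fold lower on average (-0.39 ± 0.07, adjusted p = 0.00611), although in rat 2 the cultures were close, at 8.85 in S-Bdc and 8.94 in L-Bdc. Its coactivator Mrtfa read 9.65, 9.76, 9.41, 9.55 and 9.39 in S-Bdc, against 9.62, 9.63, 9.40, 9.70 and 9.67 in L-Bdc, and the difference was -0.05 ± 0.07 (adjusted p = 0.791). Transcript levels do not show where MRTF is in the cell. Of the genes whose promoter window held a CArG box, Srf and Fhl2 were the 2 that were lower, out of 10 lower genes with a window. Among the 24 genes that were not called and had a window, 5 held the box. For the TEAD motif these counts were 4 of 10 and 9 of 24.

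Ccn1 and Ccn2 encode secreted proteins that bind integrins and are induced rapidly by serum and stretch. Ccn1, also known as Cyr61, read 10.53, 11.17, 11.13, 11.14 and 10.82 in S-Bdc of rats 1 to 5, against 12.00, 11.51, 11.73, 11.97 and 10.93 in L-Bdc. It was 1.59-fold lower in S-Bdc, with the widest standard error of the 11 lower genes (-0.67 ± 0.16, adjusted p = 0.0265). The cultures of rat 5 differed least, at 10.82 in S-Bdc and 10.93 in L-Bdc, and the adjusted p was 0.0889 without rat 3 and 0.116 without rat 4. Ccn2, connective tissue growth factor, read 13.03, 13.51, 13.20, 13.26 and 13.11 in S-Bdc, against 13.13, 13.34, 13.30, 13.14 and 13.21 in L-Bdc. The sites overlapped widely and the difference was 0.00 ± 0.06 (adjusted p = 1). Ankrd1, a nuclear ankyrin repeat protein and target of YAP and SRF, was above background in 2 S-Bdc cultures and 3 L-Bdc cultures and differed by 0.04 ± 0.07.

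**Figure D3:**
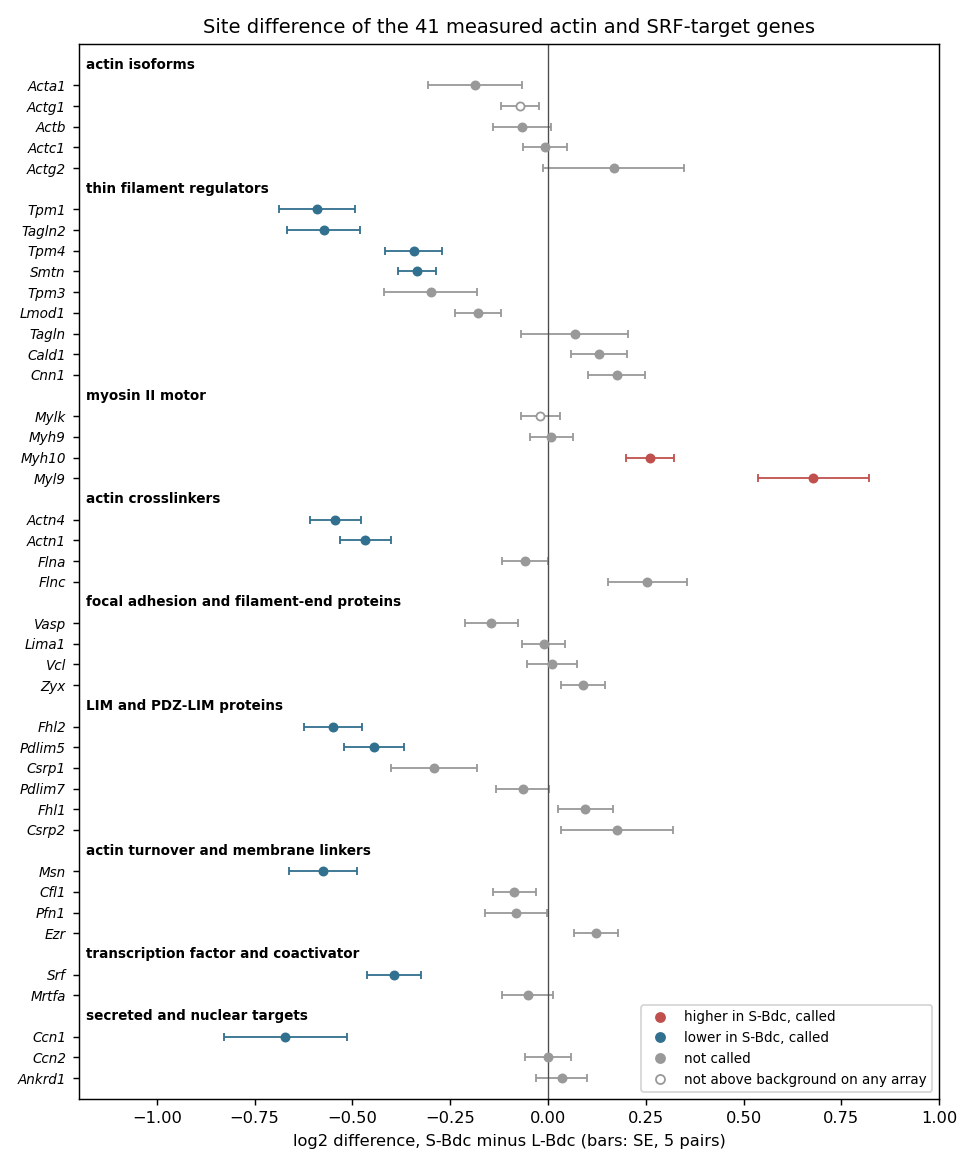
Site difference (S-Bdc minus L-Bdc, log2, horizontal axis) with its standard error for each of the 41 measured genes, grouped by role, with called genes marked. Lower genes occur in 6 of the 9 roles, and the 2 higher genes, Myl9 and Myh10, are both myosin subunits.

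Some related genes differed from each other in their site values. For 13 pairs of related genes, paired by family after their values had been seen, the log2 ratio of the 2 genes was taken within each array and compared between sites by a two-sided exact permutation test over the 252 ways of dividing 10 arrays, whose smallest p is 0.00794, with adjustment over the 13. Because the pairs were drawn up with the values known, these p-values describe the contrast and add no independent evidence. The site difference of Msn less that of Ezr was -0.70 ± 0.10 (exact p = 0.00794, adjusted 0.0344). It was -0.64 ± 0.15 for Fhl2 less Fhl1 (exact p = 0.00794, adjusted 0.0344) and -0.38 ± 0.10 for Pdlim5 less Pdlim7 (exact p = 0.00794, adjusted 0.0344). Between the transgelins it was -0.64 ± 0.21 for Tagln2 less Tagln (exact p = 0.0159, adjusted 0.0413), and between the myosin heavy chains 0.25 ± 0.07 for Myh10 less Myh9 (exact p = 0.0159, adjusted 0.0413). These 5 contrasts had the same direction in all 5 rats. Exchanging sites within rats instead cannot give a p below 0.0625.

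Ccn1 against Ccn2 differed by -0.67 ± 0.23 in the same direction in all 5 rats but did not pass after adjustment (exact p = 0.0238, adjusted 0.0516). The 2 α-actinins could not be told apart, with Actn4 against Actn1 at -0.08 ± 0.12 (exact p = 0.524). Tpm1 against Tpm4 gave -0.25 ± 0.13, below 0 in all 5 rats, with an exact p of 0.135 over all arrays and of 0.0625, the smallest possible, within rats. The over-array p fell to 0.0476 with an offset of 16 and to 0.0159 on the deposited values with a floor of 16. The other tropomyosin contrasts were -0.29 ± 0.27 for Tpm1 against Tpm3 (exact p = 0.23) and -0.04 ± 0.24 for Tpm4 against Tpm3 (exact p = 0.889). With standard errors of this size, smaller contrasts could not be resolved. Flnc against Flna, Csrp1 against Csrp2 and Actg2 against Actb gave 0.31 ± 0.14, -0.47 ± 0.30 and 0.23 ± 0.26, with exact p of 0.119, 0.0952 and 0.444.

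**Figure D4:**
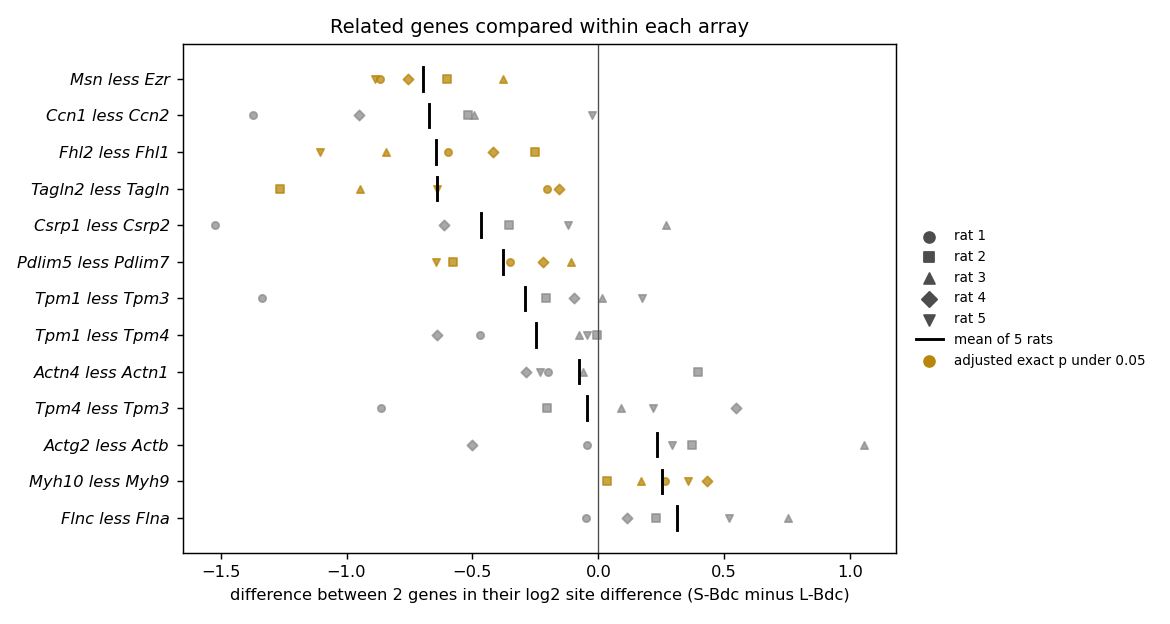
Difference between 2 related genes in their log2 site difference (S-Bdc minus L-Bdc, horizontal axis), with 1 symbol per rat and a bar for the mean of 5 rats. In the 5 coloured pairs all 5 rats lie on the same side of 0, with means between -0.70 and -0.38 for 4 pairs and 0.25 for Myh10 less Myh9.

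The rats differed in how far their 2 cultures were apart. Over the 11 lower genes the median pair difference was -0.67, -0.41, -0.33, -0.40 and -0.51 in rats 1 to 5, as a description, since these genes were chosen by the same contrast. Over all 41 measured genes it was -0.16, -0.01, -0.11, -0.10 and -0.09, with 32, 21, 25, 29 and 24 genes lower in S-Bdc. Rat 1 thus had the widest difference on both counts and rat 2 the narrowest over all 41. Cell cycle genes moved along with the same contrast. Of 24 measured, 19 were lower in S-Bdc (79.2%, beside 6.97% of probes above background on at least 1 array). None was higher (limma, none higher at an unadjusted p below 0.05). The median was -0.61, with pair medians of -0.33, -0.32, -0.61, -0.84 and -1.01 in rats 1 to 5. Their summed signal was 8543 to 14203 units in S-Bdc, against 16939 to 19563 in L-Bdc, on the deposited normalised scale. The widest cell cycle difference was in rat 5 (-1.01), and the widest of the 11 lower genes was in rat 1 (-0.67), with rat 5 next (-0.51). In the paper, an assay of cell number gave more S-Bdc than L-Bdc some days after plating at equal density. L-Bdc were still proliferating a day later. Cell number over days and transcripts at near confluence are unlike measures, so these values do not rank the sites by rate of division. The part of cell division in the actin gene differences was not tested.

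**Figure D5:**
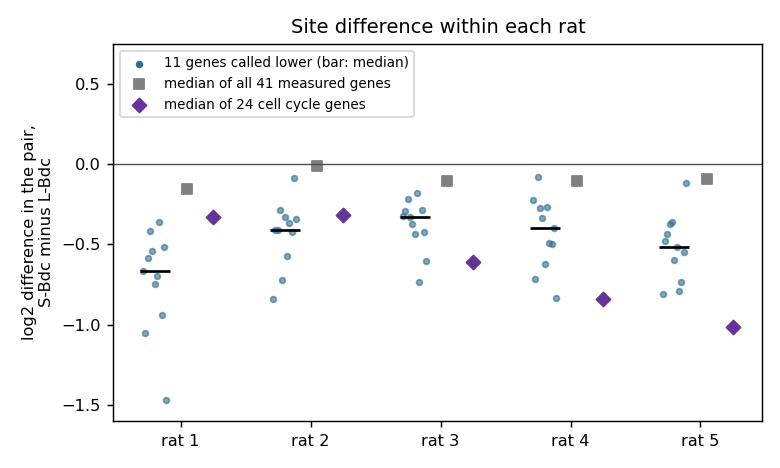
Median log2 pair difference (S-Bdc minus L-Bdc, vertical axis) in each of 5 rats (horizontal axis) for the 11 genes called lower, for all 41 measured genes and for 24 cell cycle genes. The lower genes lie between -0.67 and -0.33, with rat 1 lowest, while the cell cycle genes reach -1.01 in rat 5.

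Other genes of filament turnover were called in both directions. Of 24 measured out of 30 listed, 2 were higher (8.33%) and 3 lower (12.5%), beside 6.60% and 6.97% of probes above background. These shares rest on 2 and 3 genes. The unadjusted p (limma) was below 0.05 for 12 genes, 10 of them lower and 2 higher in S-Bdc, and the median was -0.066. Pls3, the filament-bundling plastin of non-haematopoietic cells, read 10.32, 10.38, 10.15, 10.23 and 9.85 in S-Bdc of rats 1 to 5, against 9.58, 9.70, 9.59, 9.65 and 9.47 in L-Bdc (0.59 ± 0.06, adjusted p = 0.00033). Capg, a gelsolin relative that caps filament ends, read 9.15, 8.94, 8.95, 8.69 and 8.50 in S-Bdc, against 8.06, 8.12, 8.43, 8.19 and 8.26 in L-Bdc (0.63 ± 0.10, adjusted p = 0.00448). For neither gene did the sites overlap. The lower genes were Gsn, gelsolin, which severs and caps filaments (-0.42 ± 0.09, adjusted p = 0.0171), Evl, a relative of Vasp (-0.36 ± 0.06, adjusted p = 0.00612), and Arpc3, a subunit of the Arp2/3 complex that seeds branched filaments (-0.24 ± 0.07, adjusted p = 0.0477).

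Of 15 other focal adhesion genes measured out of 20 listed, 3 were higher (20%, a share that rests on 3 genes) and none lower in S-Bdc (limma, 1 lower at an unadjusted p below 0.05), and the median was 0.050. Parva, parvin α, which connects integrin-linked kinase to actin, was higher (0.44 ± 0.08, adjusted p = 0.00617), as was Synpo2, a filament-bundling synaptopodin of muscle (0.28 ± 0.07, adjusted p = 0.0302). Pdlim3 also passed (0.23 ± 0.05, adjusted p = 0.0143) but was above background on 1 S-Bdc array and no L-Bdc array. Of 11 YAP, TAZ and TEAD genes and targets measured out of 17 listed, 2 were lower (18.2%, resting on 2 genes) and none higher (limma, none higher at an unadjusted p below 0.05), and the median was -0.071. Ajuba, a LIM protein that restrains the LATS kinases at adhesions, read 8.12, 8.26, 8.05, 8.22 and 8.20 in S-Bdc of rats 1 to 5, against 8.72, 8.79, 8.54, 8.56 and 8.69 in L-Bdc (-0.49 ± 0.05, adjusted p = 0.000408), and the sites did not overlap. F3, tissue factor, was lower as well (-0.43 ± 0.07, adjusted p = 0.00302).

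Some defining markers of muscle, vessel and blood cells were not above background at either site. Of 15 skeletal and heart muscle markers measured, 10 were above background on some array, and Myog, Ckm, Myh4, Myh3 and Pax7 on none. Tnnt3, Myl1 and Des were above background on all 10 arrays. Their summed signal was 104 to 162 units in S-Bdc, against 145 to 191 in L-Bdc, and 1 was called, Myl1, a myosin light chain of fast muscle, lower in S-Bdc (-0.37 ± 0.05, adjusted p = 0.00159). Of 9 smooth muscle and pericyte markers, Rgs5, Mcam and Kcnj8 were not above background on any array, and Cspg4 and Des were so on all 10. The sums were 135 to 166 in S-Bdc, against 169 to 240 in L-Bdc. Cspg4, the NG2 proteoglycan, was lower (-0.35 ± 0.06, adjusted p = 0.00367) and made up most of the sum, and without it the other 8 markers summed to 28.0 to 58.8 units in S-Bdc, against 24.5 to 49.8 in L-Bdc. Abcc9, a subunit of a potassium channel, passed in the other direction (adjusted p = 0.0467), but was above background on 4 S-Bdc arrays and no L-Bdc array, so that it was at least 1.07-fold higher. Of 7 endothelial markers, Cdh5, Vwf and Esam were not above background on any array, whereas 3, among them Tie1, were above it on all 10. None was called (limma, 1 at an unadjusted p below 0.05, lower in S-Bdc). The sums were 54.6 to 97.1 in S-Bdc, against 85.7 to 148 in L-Bdc. Of 6 blood cell and osteoclast markers, Ptprc and Calcr were not above background on any array, whereas 3 were above it on all 10. None was called (limma, none at an unadjusted p below 0.05), and the sums were 1854 to 2588 in S-Bdc, against 2167 to 2685 in L-Bdc. Those sums were mostly Ctsk, cathepsin K (mean 1800 units in S-Bdc, against 1982 in L-Bdc), and Cd14 (348 units in S-Bdc, against 397 in L-Bdc). The muscle, endothelial and blood cell sums overlapped between sites. The smooth muscle and pericyte sums did not, and they overlapped only when Cspg4 was left out. The part of these cells in the actin gene differences was not tested. Of the osteoblast markers, Col1a1, one of the chains of type I collagen, was higher in S-Bdc (0.58 ± 0.06, adjusted p = 0.000382), whereas its partner chain Col1a2 differed by -0.01 ± 0.05 (adjusted p = 0.947). Spp1, osteopontin, was lower (-1.81 ± 0.12, adjusted p = 3.13e-05).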

How the data were processed

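Total RNA of 10 cultures was hybridised to RatRef-12 BeadChips by the authors. They deposited a table of raw bead signals (intensity, not normalised) and a table of intensity values background-subtracted and normalised in BeadStudio, whose settings are not given in the sources used here. Because the raw table holds other probe numbers, its 22517 rows were matched to the 22523 normalised rows by their ranks on the 10 arrays. Every raw row had a mutual best match, with the next best at least 6.35 times farther. Gene symbols came from the platform annotation (13787 probes with a symbol, 8730 with none). Raw signals were corrected by normexp (offset 50), log2-transformed, quantile normalised and fitted with limma 3.58.1 (R 4.3.3), with rat as a block and site as the effect. p-values were adjusted by the Benjamini-Hochberg method over 22517 probes. The scripts were tested on simulated data.

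A probe was above background where its normalised value exceeded 8.51 units, the 95th percentile of the mirrored values at or below 0. No array was left out, and raw medians were 40.6 to 48.1. The number of rats, not of arrays, limits precision. The limma p-values and standard errors rest on how far the site difference varied between the 5 rats, with variances partly shared across all probes. Standard errors of the related-gene contrasts come from the 5 pair differences alone. The exact p-values over all arrays do not use the pairing. The labels name the rat of each culture, and the correlations of the deviations of same-rat cultures were 0.06, 0.21, 0.25, 0.18 and 0.13 in rats 1 to 5. The S-Bdc culture of rat 1 correlated best with the L-Bdc culture of rat 5 (0.28), and the other 4 with their own rat. The genes and lists were chosen with earlier results of these data known, and the related-gene pairs after the values were seen. By rule, values of every array were given for called genes and for Actb, Tagln, Cnn1 and Srf, other genes by range and count, and up to 4 called genes of each pathway list and 3 of each marker list by lowest adjusted p. Outside that rule, Mrtfa, Ccn2, Arpc3, the markers not above background, Ctsk, Cd14, Col1a2, Bglap and Sp7 were added after their values were seen. A further pathway list is not reported here. Alternatives were no block, offset 16, other normalisations, a filter on dim probes, the deposited values, another moderation, the mean of a gene's probes, and each rat left out.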

Additional observations from a re-analysis of the deposited data

Results flagged for a closer look

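In 82 groups of 5 cultures (41 genes at 2 sites), 5 held a culture whose gap to its nearest neighbour took up an unusually large share of the group's range, and chance alone gives about 1 in 20. Of these 5 groups, 3 were flagged through a culture of rat 2. Actn4 was highest in S-Bdc of rat 2, at 8.52 against 7.99 to 8.08 in the other S-Bdc cultures, and Ankrd1 was highest there too, at 6.44 against 6.07 to 6.13. Srf was lowest in L-Bdc of rat 2, at 8.94 against 9.22 to 9.31. Without rat 2, Actn4 and Srf remained lower in S-Bdc and past the threshold. Flnc was lowest in S-Bdc of rat 3, at 8.15 against 8.27 to 8.29, and Csrp1 was highest in L-Bdc of rat 1, at 9.21 against 8.80 to 8.91.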

How the results depend on the processing

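With offset 16, cyclic loess, a filter on dim probes, the deposited values plus 50, another moderation or the mean of a gene's probes, 12 to 14 genes of the set were called. Median scaling gave 1268 calls over all probes (709 higher, 559 lower) and moved the median of the 41 genes to -0.0034. No normalisation gave 870 over all probes, 6 in the set and a median of 0.00063, and the deposited values with a floor of 16 gave 209 and 1. The causes were not tested. Without the replicate block, 11 genes of the set and 1915 probes were called. Without the pairing Myl9 and Myh10 lost their calls, and no other gene did. Leaving out each rat gave 1323 to 2219 probes (fewest without rat 3), 10 to 16 genes and medians of -0.094 to -0.033. Of 612 values of single genes under these alternatives, 571 kept their side of the threshold, 36 no longer passed, 5 newly passed and none turned round past the threshold. Among the 571, single genes near 0 did change sign, and signs were kept for all 13 called genes. Among related genes, Msn against Ezr, Fhl2 against Fhl1 and Pdlim5 against Pdlim7 had an exact p below 0.05 in 11 of 11 alternatives, Tagln2 against Tagln in 8, and Myh10 against Myh9 and Ccn1 against Ccn2 in 7 each. No probe below background on every array was called, so such genes gave no difference to read. Genes below background on only some arrays could be called, as Pdlim3 and Abcc9 were.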
